A study of Mus musculus with 4 samples.

Results

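The lysosomal enzymes that take glycans apart, together with the enzymes that build glycosphingolipids, were followed in mouse vascular smooth muscle cells (VSMC) on an expression array. A list of 30 genes was looked up by the RefSeq accession of each probe set, and 26 were measured, each by 1 probe set, among 1246 probe sets and 909 named genes. The other 4, Fuca1, Fuca2, Ids and Hgsnat, had no probe set that could be named here. By role the 26 were 10 lysosomal glycosidases, 4 genes of sialic acid removal (3 sialidases and their partner Ctsa), 4 sulfatases, 2 activator proteins and 6 enzymes of glycosphingolipid synthesis.

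The cells were wild-type VSMC, which contract to set the width of arteries, and all of them were grown in osteogenic medium, under which they take on features of bone cells. The treated group (STZ) was given streptozotocin at 0.4 mM, a sugar-linked alkylating agent best known for killing insulin-producing cells, and the control group was not. All 4 sample names also carry the mark 3w, which the labels do not explain. Each group held 1 array of a cell sample named WTA and 1 of a cell sample named WT2, called cultures here, so that 4 arrays were used in all. The labels do not say whether the culture names stand for separate animals, so p-values measure only the spread between these samples, which may be technical. The design text asks how glycogenes, the genes for making, cutting and reading sugar chains, respond to streptozotocin while VSMC calcify.

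Lysosomal breakdown removes sugars from the outer end of a chain, each step needing an enzyme specific to the sugar and its linkage. Sulfatases take off sulfate groups on the way, and small activator proteins lift glycolipids out of the membrane so that the glycosidases can reach them. Loss of a single enzyme lets its substrate pile up, as in the human lysosomal storage diseases. In the other direction, glucosylceramide synthase starts most glycosphingolipids, and later transferases lead them into the globoside and ganglioside branches. A separate branch starts from galactosylceramide and ends in sulfatide. Many lysosomal genes are known to share a promoter element bound by the transcription factor Tfeb.

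Values are log2 intensities per probe set as normalized by the authors. The array medians lay between 5.83 and 5.87. Of the 26 genes 21 averaged above the median over all probe sets (5.86), and the 5 below it were Man2b1, Neu2, Neu3, Ugt8a and Gal3st1. Values of such dim probe sets hold background as well as signal, so their differences are compressed. The arrays correlated at 0.977 to 0.997 over all probe sets, lowest between the STZ array of WTA and the control array of WT2 and highest between the pair of WTA. The cell type could hardly be checked: of 10 smooth muscle markers only Pdgfrb was measured. Of 18 macrophage and leukocyte markers, cells known for a high lysosomal content, 9 were measured and 8 of those lay below the median over all probe sets. The mean log2 level of these 9 was 4.62 and 4.52 in the STZ arrays of WTA and WT2, against 4.50 and 4.60 in the control arrays of WTA and WT2. Csf1r alone of them lay above the median over all probe sets. It stood at 7.92 and 7.40 with STZ in WTA and WT2, against 7.47 and 7.66 in control cells.

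**Figure D1:**
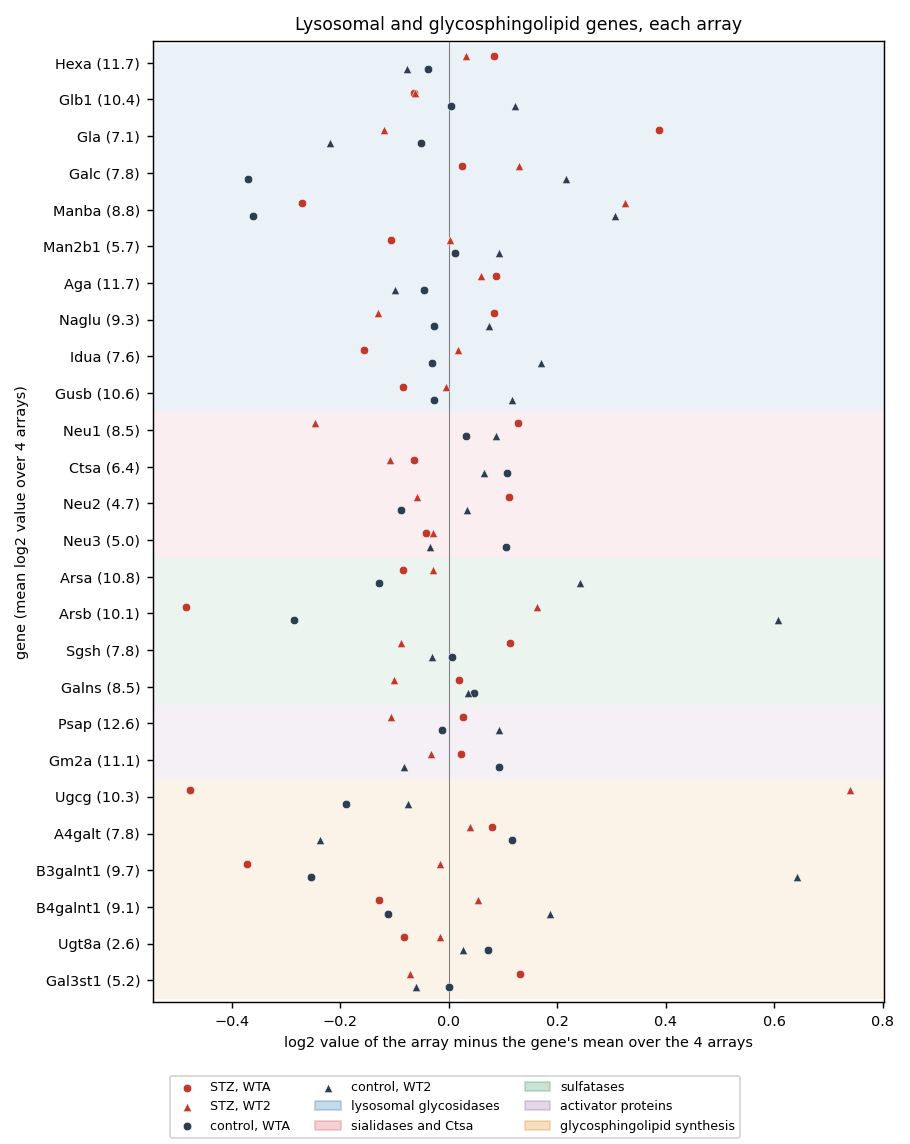
Log2 value of each array minus the mean over the 4 arrays (horizontal axis) for the 26 genes (vertical axis, with the mean log2 value in brackets), grouped by role; red is STZ, dark is control, circles are WTA and triangles WT2. Most genes lay within a narrow band, and Ugcg, Arsb, B3galnt1 and Manba were spread furthest, by 1.22, 1.09, 1.01 and 0.69.

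None of the 26 genes passed the test for streptozotocin against control, and most of them, like most probe sets, moved little over the 4 arrays. The spread from the lowest to the highest array had a median of 0.21 over the 26 genes, against 0.26 over all probe sets. It stayed within 0.5 for 20 of the 26, or 76.9%, against 76.7% of all probe sets. The differences, STZ minus control, ran from -0.39 for B3galnt1 to 0.27 for Gla, with a median of -0.07 over the 26 genes, against -0.01 over all probe sets. They were positive for 10 genes and negative for 16. Without the control array of WT2 the median was 0.01. Limma found 0 of 26 at an adjusted p under 0.05, against 0% of all probe sets, and 0 of 26 at an unadjusted p under 0.05, against 2.01%. With the replicate number as a block, limma again called 0 of 26 by the adjusted p (0% of all probe sets), and 0 of 26 against 6.42% by the unadjusted p. The 95% interval of the difference lay within 2-fold in either direction for 22 of the 26, against 1073 of all 1246 probe sets. The exceptions among the 26 were Manba, Arsb, Ugcg and B3galnt1. These intervals come from the fit without the block, so their width holds the difference between the cultures too. Without the block the SE was 0.34, 0.41, 0.46 and 0.36 for these genes in that order. With the block it was 0.09, 0.11, 0.30 and 0.17. The mean level of the 3 measured fibroblast markers was lower with STZ in both cultures, and their median difference was -0.42, with 0 past limma's test. Pdgfrb, the only smooth muscle marker measured, was lower with STZ in both cultures too. It stood at 9.44 and 9.38 with STZ in WTA and WT2, against 9.68 and 9.57 in control cells. Its difference of -0.22 did not pass the test. The part of these markers in the differences of the 26 genes was not tested. As the RNA came from whole cultures, fewer cells of a type and less RNA per cell cannot be told apart.

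**Figure D2:**
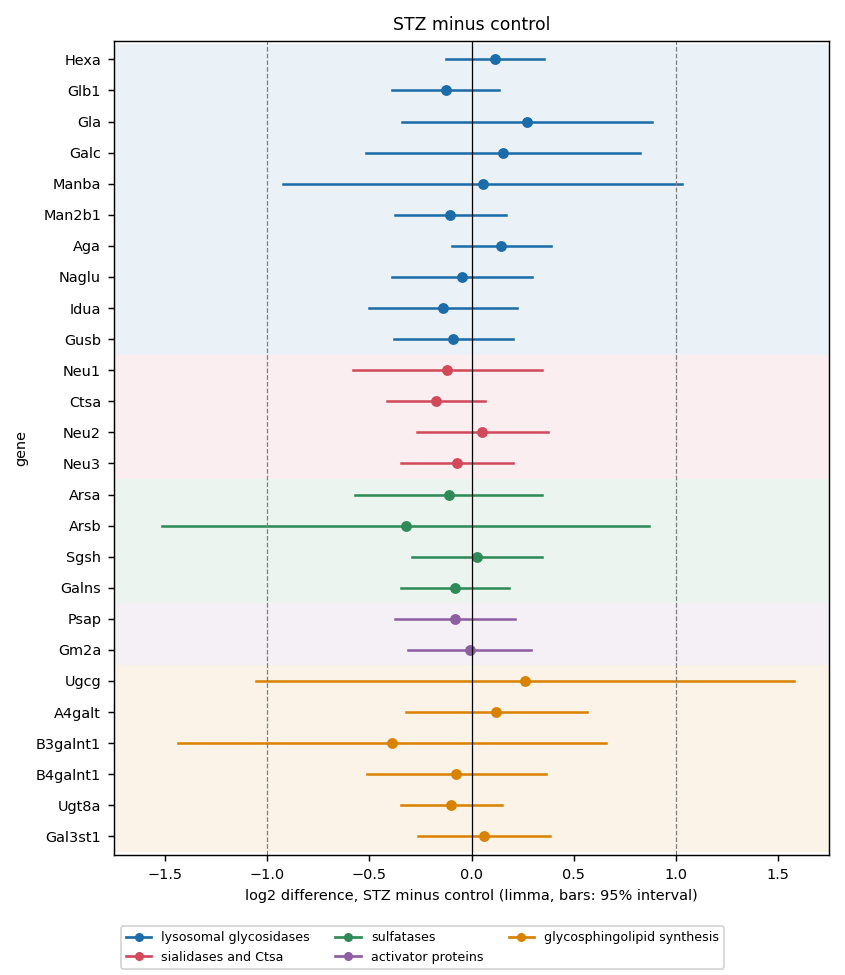
Log2 difference, STZ minus control, for each of the 26 genes (points) with limma's 95% interval (bars); dashed lines mark 2-fold in either direction, and colours mark the roles. All intervals, from the fit without the block, include 0, and those of Manba, Arsb, Ugcg and B3galnt1 reach past a dashed line.

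Both STZ arrays lay outside the range of both control arrays for 7 of the 26 genes, 2 above and 5 below. Over all probe sets 24.6% had no overlap, 10.8% above and 13.8% below, so the count for the 26 genes is near that background. The 2 above were Hexa and Aga. Those below were Glb1, Man2b1, Ctsa, Galns and Ugt8a. Each of these 7 differences was small, between -0.17 for Ctsa and 0.15 for Aga. In both cultures 4 genes were higher with streptozotocin and 10 were lower, against 22.6% and 28.5% of all probe sets. The other 12 went opposite ways in the cultures, against 49% of all probe sets.

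The promoters of the 26 genes were searched for the core letters of the Tfeb element, because many lysosomal genes are known to share it. Of the 26 genes 23 had a promoter in RefSeq's table (GRCm38.p6), which runs from 250 bases before to 50 after each start. Of those 23, 6 held the letters CACGTG, which read the same on both strands. That is 26.1% of these genes, against 8.09% of all genes with a promoter in the table. The longer TCACGTGA, which contains CACGTG, was held by Ctsa and Gla, against 1.12% of all genes. The longest form searched, which extends TCACGTGA by a base on each side, was held by 0 of the 23, against 0.37% of all genes. The stretches around the matches before the start are given 5′ to 3′ on the gene's strand, with the matched letters in capitals.
Ctsa, chr2:164833713-164833772, plus strand: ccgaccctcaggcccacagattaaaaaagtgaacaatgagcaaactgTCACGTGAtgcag
Gla, chrX:134601173-134601253, minus strand: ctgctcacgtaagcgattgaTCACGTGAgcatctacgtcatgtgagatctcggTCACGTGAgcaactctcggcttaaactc
Glb1, chr9:114401010-114401069, plus strand: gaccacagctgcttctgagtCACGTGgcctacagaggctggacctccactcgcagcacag
Naglu, chr11:101070001-101070060, plus strand: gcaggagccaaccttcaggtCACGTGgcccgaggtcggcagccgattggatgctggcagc
Sgsh, chr11:119355511-119355570, minus strand: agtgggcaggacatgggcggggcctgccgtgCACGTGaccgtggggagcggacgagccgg
Arsa, chr15:89477425-89477484, minus strand: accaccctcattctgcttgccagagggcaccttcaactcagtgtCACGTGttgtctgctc
The first match began 13 bases before the start in Ctsa and 16 in Arsa, and 228 bases before it in Gla, which held 2 copies there. Ctsa held 1 more match after the start, which is not shown. A match is a description of these letters and not a binding site. The difference, STZ minus control, had a median of -0.08 over the 6 genes with a match and of -0.07 over the 17 without one. It ran from -0.17 (Ctsa) to 0.27 (Gla) within the 6.

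Among the glycosidases of glycolipid breakdown, the steadiest was Hexa, the alpha subunit of the beta-hexosaminidase that trims ganglioside GM2 and is lost in Tay-Sachs disease. Its log2 value was 11.76 and 11.70 in the STZ arrays of WTA and WT2, against 11.64 and 11.60 in the control arrays of WTA and WT2. Both STZ arrays stood above both controls, by 0.11 on average (SE 0.08, limma adjusted p = 1). Glb1 encodes the lysosomal beta-galactosidase. It stood at 10.34 in both STZ arrays, against 10.41 and 10.52 in the controls of WTA and WT2, a difference of -0.13 (SE 0.09). Gla, the alpha-galactosidase lost in Fabry disease, clears the globotriaosylceramide that A4galt makes. It stood at 7.52 and 7.01 with STZ in WTA and WT2, against 7.08 and 6.91 in control cells, so that the STZ array of WTA was the high one. The difference of 0.27 (SE 0.21) had a 95% interval of -0.34 to 0.88, and it was 0.016 without that array. Galc removes galactose from galactosylceramide. Its low value was the control array of WTA, at 7.43, against 8.02 in the control array of WT2, with STZ arrays between them at 7.83 and 7.93.

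Among the glycosidases that act mainly on glycoproteins, Aga, which splits the bond between asparagine and the first sugar, was the other gene with both STZ arrays above both controls. It stood at 11.78 and 11.76 with STZ in WTA and WT2, against 11.65 and 11.60 in control cells. The difference of 0.15 (SE 0.08) had a 95% interval of -0.09 to 0.39, so a change beyond 1.5-fold lies outside it. Manba, the beta-mannosidase, differed by 0.05 between the treatments and separated the cultures instead, as given further on. Man2b1, the lysosomal alpha-mannosidase, was dim, at 5.56 and 5.66 with STZ in WTA and WT2, against 5.68 and 5.76 in control cells. Its STZ arrays lay below both controls by 0.10 on average (SE 0.09), which did not pass the test.

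Naglu, Idua and Gusb take sugars off glycosaminoglycans, Naglu from heparan sulfate and Idua from heparan and dermatan sulfate. None differed between the treatments by more than 0.14 on the log2 scale. Idua differed by -0.12 in WTA and -0.15 in WT2, and Gusb, the beta-glucuronidase, by -0.06 and -0.12, so both went the same way in each culture. Naglu went opposite ways, 0.11 in WTA and -0.20 in WT2.

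The group of sialic acid removal held 1 gene with a near equal difference in both cultures. Ctsa, the carboxypeptidase known as protective protein, binds Neu1 and Glb1 and keeps them stable. It stood at 6.35 and 6.30 with STZ in WTA and WT2, against 6.52 and 6.48 in control cells. Both STZ arrays lay below both controls, and the difference was -0.17 in WTA and -0.17 in WT2, with an SE of 0.08 and a limma adjusted p of 1. Its partner Glb1 lay lower in both cultures too, whereas Neu1, the lysosomal sialidase, did not. Neu1 stood at 8.63 and 8.25 with STZ in WTA and WT2, against 8.53 and 8.59 in control cells, so the STZ array of WT2 was the low one. The cytosolic sialidase Neu2 and the membrane sialidase Neu3, which acts on gangliosides, were dim, between 4.66 and 5.08 in all arrays. They differed by 0.05 and -0.07.

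Of the 4 sulfatases, none passed the test and Arsb had the largest difference. It encodes the sulfatase that takes 4-sulfate groups off dermatan and chondroitin sulfate. Its log2 value was 9.59 and 10.24 with STZ in WTA and WT2, against 9.79 and 10.68 in control cells. The STZ array was the lower one in each culture, by 0.20 and 0.44, while the cultures lay further apart than the treatments. The difference was -0.32 (SE 0.41, limma adjusted p = 1), and with the replicate block it had an SE of 0.11 and an adjusted p of 0.738. Arsa, which desulfates sulfatide, had 1 high array, the control of WT2 at 11.06, with the others between 10.69 and 10.79. Galns removes sulfate from keratan and chondroitin sulfate. It lay at 8.51 and 8.39 with STZ in WTA and WT2, against 8.54 and 8.53 in control cells, a difference of -0.08 (SE 0.09). Sgsh, which removes the N-linked sulfate of heparan sulfate, differed by 0.03 (SE 0.11). In WT2 all 4 sulfatases were lower with streptozotocin, by 0.06 to 0.44, and in WTA 2 of them were.

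The activator proteins spread little over the arrays. Psap is cut into the saposins, which help several glycolipid hydrolases. It stood at 12.66 and 12.53 with STZ in WTA and WT2, against 12.62 and 12.73 in control cells, a difference of -0.08 (SE 0.10). Gm2a presents ganglioside GM2 to beta-hexosaminidase and stood at 11.11 and 11.05 with STZ in WTA and WT2, against 11.18 and 11.00 in control cells. Its difference was -0.01 (SE 0.10), with a 95% interval of -0.31 to 0.29. For neither gene did the groups separate.

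The synthesis enzymes held the widest values. Ugcg, the glucosylceramide synthase at the head of the pathway, stood at 9.84 and 11.06 with STZ in WTA and WT2, against 10.13 and 10.24 in control cells. The control arrays were close to each other, and the STZ arrays lay on either side of them. The difference was 0.81 in WT2 and -0.29 in WTA, 0.26 in the fit (SE 0.46, limma adjusted p = 1), with a 95% interval of -1.05 to 1.58. Leaving out the STZ array of WT2 turned it to -0.35. Ugcg was the only one of the 26 genes at least 1.5-fold higher in WT2, where 4.82% of all probe sets were, and none was in WTA, where 0.642% were.

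Downstream of Ugcg, the globoside branch starts with A4galt and goes on with B3galnt1, the synthase of globoside. A4galt stood at 7.89 and 7.85 with STZ in WTA and WT2, against 7.93 and 7.57 in control cells, with the control of WT2 as the low array. B3galnt1 stood at 9.38 and 9.73 with STZ in WTA and WT2, against 9.50 and 10.39 in control cells, with the control of WT2 as the high array. Its difference of -0.39 (SE 0.36) was -0.12 in WTA and -0.66 in WT2, and 0.06 without that control array. It was the only one of the 26 at least 1.5-fold lower in WT2, where 2.49% of all probe sets were, and none was in WTA, where 1.69% were. B4galnt1, which makes gangliosides GM2 and GD2, differed by -0.07 (SE 0.15). In the galactosylceramide branch, which is best known from myelin, Ugt8a lay between 2.50 and 2.65, near the lowest value of the table (2.09). Gal3st1, the sulfatide synthase, lay between 5.15 and 5.35.

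**Figure D3:**
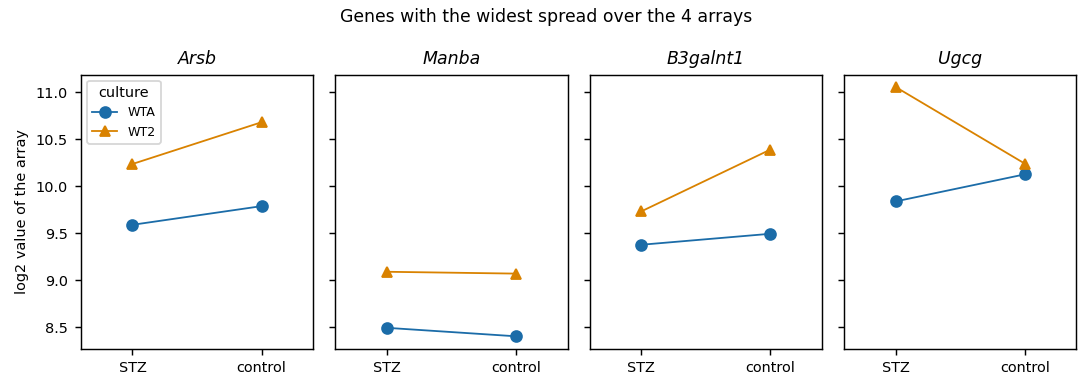
Log2 values of the 4 genes with the widest spread, with STZ left and control right in each panel; blue circles are WTA, orange triangles WT2, and each point is 1 array. Arsb, Manba and B3galnt1 lay lower in WTA than in WT2 in both treatments, while for Ugcg the cultures lay apart with STZ (9.84 in WTA and 11.06 in WT2) and close together in control cells (10.13 and 10.24).

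The cultures were also set beside each other. The difference, STZ minus control, had a median over the 26 genes of -0.02 in WTA and -0.09 in WT2, against 0 and -0.02 over all probe sets. Its size had a median of 0.12 in WTA and 0.13 in WT2, against 0.10 and 0.13 over all probe sets. Across genes, which are not independent, Pearson's correlation of the differences in WTA with those in WT2 was -0.02 over the 26, against 0.15 over all probe sets. Within the 26 it was 0.40 over the 20 genes of breakdown and -0.41 over the 6 of synthesis. Of those 6 Ugcg lay furthest from 0 in both cultures (-0.29 in WTA and 0.81 in WT2). A correlation over so few genes can rest on 1 of them, and it was not computed without Ugcg. Each culture has 1 array per treatment, so the differences within a culture have no test. The median difference in the fit was -0.08 over the 20 genes of breakdown and -0.01 over the 6 of synthesis.

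**Figure D4:**
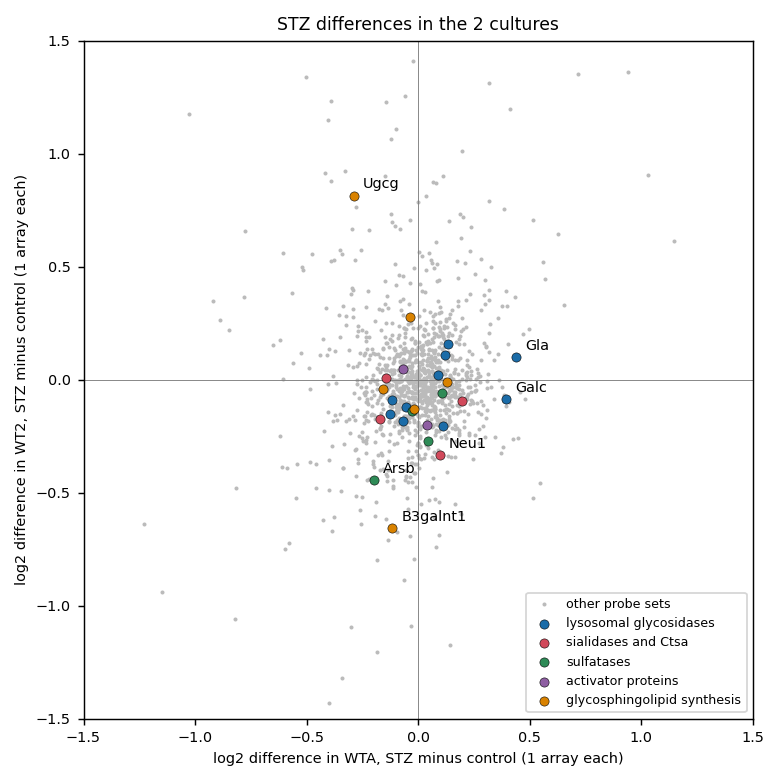
Log2 difference, STZ minus control, in WTA (horizontal) and in WT2 (vertical) for the 26 genes (coloured by role) and the other probe sets (grey); 18 probe sets lie outside the axes. Most of the 26 genes sit in the central cloud, and Ugcg (-0.29 in WTA, 0.81 in WT2) and B3galnt1 (-0.12 in WTA, -0.66 in WT2) lie furthest from it.

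WTA was also set against WT2, with the treatment as a second term of limma's fit, and again 0 of the 26 genes passed the test, against 2.25% of all probe sets. At an unadjusted p under 0.05 limma gave 3 of the 26, all lower in WTA, against 16.9% of all probe sets in either direction and 9.55% lower in WTA. These were Arsb, Manba and B3galnt1. Arsb averaged 9.69 ± 0.14 in WTA and 10.46 ± 0.31 in WT2 (SD, n = 2 each), a difference of -0.77 (SE 0.11, limma adjusted p = 0.0804). Manba averaged 8.45 ± 0.06 in WTA and 9.08 ± 0.01 in WT2 (SD, n = 2 each), a difference of -0.63 (SE 0.09, limma adjusted p = 0.0826). With eBayes' robust prior limma called these 2, with adjusted p of 0.0354 for Arsb and 0.0423 for Manba. B3galnt1 averaged 9.44 ± 0.08 in WTA and 10.06 ± 0.46 in WT2 (SD, n = 2 each), a difference of -0.63 (SE 0.17, limma adjusted p = 0.203). Without the control array of WT2 this difference was -0.30, and without its STZ array -0.95.

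**Figure D5:**
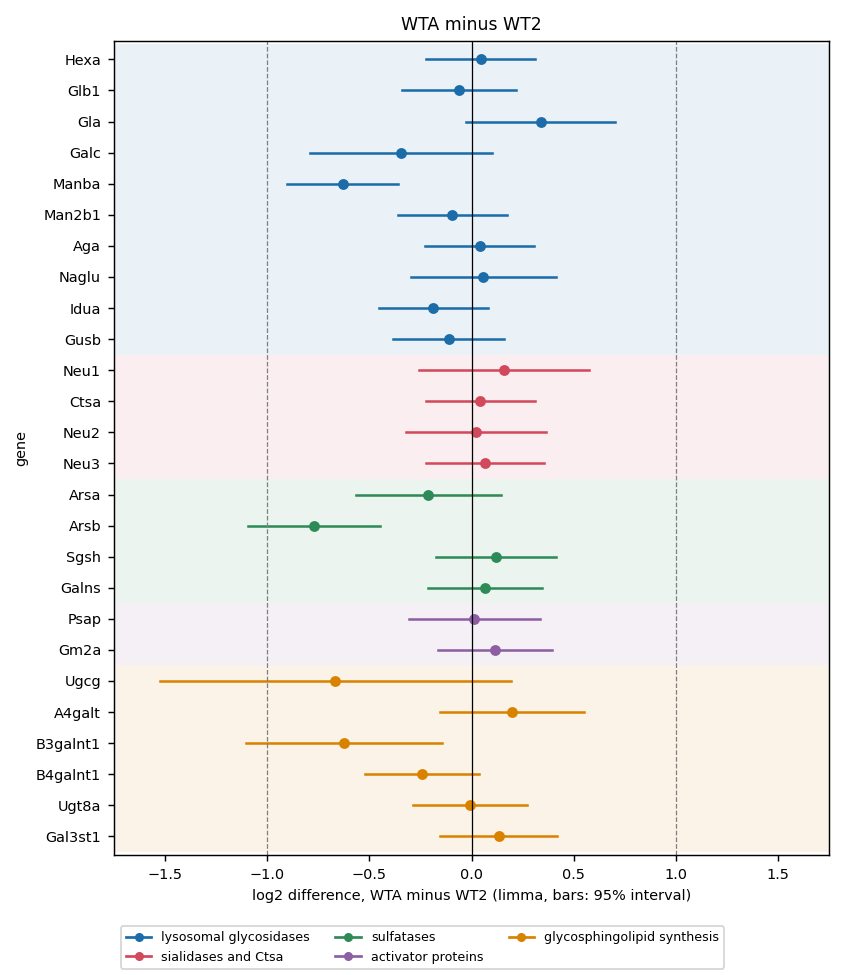
Log2 difference, WTA minus WT2, for each of the 26 genes (points) with limma's 95% interval (bars) from the fit with treatment and culture; dashed lines mark 2-fold and colours mark the roles. The intervals of Arsb, Manba and B3galnt1 lie below 0 and the others include 0.

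Both arrays of WTA lay outside the range of both arrays of WT2 for 14 of the 26 genes, 5 above and 9 below, against 49% of all probe sets, 21.3% above and 27.7% below. Above were Gla, Sgsh, Gm2a, A4galt and Gal3st1. Below were Galc, Manba, Idua, Gusb, Arsa, Arsb, Ugcg, B3galnt1 and B4galnt1. At least 1.5-fold lower in WTA were 4 genes, Arsb, Manba, B3galnt1 and Ugcg, against 58 of all 1246 probe sets. As much higher were 0 of the 26, against 56 of all probe sets. The median difference, WTA minus WT2, was 0.02 over the 26 genes, against -0.02 over all probe sets. Gla stood 0.34 higher in WTA (SE 0.13, limma adjusted p = 0.323), and its 95% interval ran from -0.03 to 0.70. Without the STZ array of WTA it was 0.12. Markers of other cells differed between the cultures as well: of 13 endothelial markers 7 were measured, with a mean log2 level of 6.96 (STZ) and 6.92 (control) in WTA, against 5.97 (STZ) and 5.80 (control) in WT2. Of 5 fibroblast markers 3 were measured (Dcn, Lum and Pdgfra), all lower in WTA on average, with a mean log2 level of 10.90 (STZ) and 11.26 (control) in WTA, against 11.23 (STZ) and 11.93 (control) in WT2. None of these 3 passed limma's test (adjusted p = 0.0631 for Pdgfra, the lowest). The part of either marker list in the differences of Arsb, Manba and B3galnt1 was not tested. Of the 7 endothelial markers, Pecam1 and Sele lay below the lower quartile of every array (4.39), and limma called Esm1 as higher in WTA and Cd34 as lower. Esm1 differed, WTA minus WT2, by 4.93 and Cd34 by -1.07, so the gap in the mean of these markers rests largely on Esm1. Thbd, Emcn and Selp differed by 1.33, 1.22 and 0.79 without passing the test, and Pecam1 and Sele by 0.15 and 0.05.

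Other genes of the same and related pathways gave a similar picture. Of 15 measured genes from a list of other lysosomal breakdown and related genes, 0 passed the test in either comparison. The list also held extracellular enzymes and proteins that are not enzymes. The difference, STZ minus control, was largest for Sulf1 (0.46), an extracellular sulfatase of heparan sulfate, and for Hpse (0.38), which cuts heparan sulfate chains. Hpse went as Ugcg did, with 8.07 in the STZ array of WT2, against 7.16 in its control, and 6.52 in the STZ array of WTA, against 6.67 in its control. Sulf2, another extracellular sulfatase, differed by -0.24 and Gaa, the acid alpha-glucosidase of glycogen, by -0.25. Between the cultures Hpse differed, WTA minus WT2, by -1.02 (SE 0.29, limma adjusted p = 0.219). Igf2r, a receptor that carries newly made enzymes to the lysosome, differed by -0.57 (SE 0.13, limma adjusted p = 0.156). Gaa differed by -0.38 (SE 0.09, limma adjusted p = 0.178). Sulf1 went the other way, with 0.47 (SE 0.15, limma adjusted p = 0.259).

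Of 40 measured genes from a list of other glycosphingolipid genes, many of which also act on protein glycans, 0 passed the test for streptozotocin and 1 passed it between the cultures. The largest differences, STZ minus control, were -0.38 for Slc35a3, a carrier of UDP-GlcNAc, 0.36 for the fucosyltransferase gene Fut4, 0.29 for Gcnt2, which branches poly-lactosamine chains, and 0.28 for Gal3st2, a galactose sulfotransferase. Gal3st2 was the gene that passed between the cultures. It stood at 5.78 and 5.46 in the STZ and control arrays of WTA, against 4.81 and 4.57 in the STZ and control arrays of WT2. It was higher in WTA by 0.93 (SE 0.10, limma adjusted p = 0.0445). B3galt1, a galactosyltransferase, stood 1.51 higher in WTA (SE 0.20, limma adjusted p = 0.0702), and B3gnt5, which starts the lacto-series of glycolipids, 0.86 higher (SE 0.11, limma adjusted p = 0.0647). Gcnt2 stood 0.65 higher in WTA (SE 0.23, limma adjusted p = 0.302). B3galt1, B3gnt5 and Gcnt2 did not pass the test. In WT2 B3gnt5 was dim, at 4.29 with STZ and 4.18 in control cells, below the lower quartile of every array (4.39).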

How the data were processed

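Total RNA was isolated with Trizol and 0.5 ug of it was turned into biotinylated cRNA by Affymetrix's procedure, per the labels' protocols. The authors deposited 1 log2 value for each probe set and array. The submitters' processing notes name RMA, without a version or settings. RMA usually gives all arrays the same distribution, which would hide a change shared by most genes. Each identifier starts with a transcript accession, which was looked up in the GRCm38.p6 table for a symbol, and 963 of 1246 had 1 symbol. Identifiers of 5 of the 26 genes (Gla, Sgsh, Neu2, Ugcg and Gal3st1) carry an s, a letter sometimes used where probes match more than 1 transcript.

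Groups came from the titles. The same cell sample bears the same number in both groups, so the numbers pair the arrays, and same-numbered arrays deviated together (correlation 0.600). Limma 3.58.1 in R 4.3.3 was fitted over all 1246 probe sets without the block (2 residual and 1.68 prior degrees of freedom), and with treatment and culture for the cultures, with Benjamini-Hochberg adjustment and a threshold of 0.05. Array number limits precision. The genes and lists were chosen with earlier results of these data known. Every listed gene that was measured is named, and per list of other pathway genes the 4 with the largest difference in each comparison and those past the test. As alternatives the fit was repeated with the replicate block, without each array, with 2 other scalings, on the brighter probe sets, with 2 other priors, with culture alone, and with 1 row per gene.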

Additional observations from a re-analysis of the deposited data

Results flagged for a closer look

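The difference, STZ minus control, went opposite ways in the cultures for 12 of the 26 genes, against 49% of all probe sets. Each culture has 1 array per treatment, so these contrasts were not tested. The difference in WTA minus that in WT2 was -1.10 for Ugcg (-0.29 in WTA and 0.81 in WT2), 0.48 for Galc (0.39 in WTA and -0.09 in WT2) and 0.43 for Neu1 (0.10 in WTA and -0.33 in WT2). It was 0.31 for Naglu, 0.32 for Arsa, -0.31 for A4galt, 0.29 for Neu2 and 0.24 for Psap. It was smallest for Sgsh (0.17), Neu3 (-0.15), Gal3st1 (0.14) and Gm2a (-0.12).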

How the results depend on the processing

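Under all alternatives 0 of the 26 genes passed limma's test for streptozotocin, the replicate block included, and between the cultures the robust prior alone called any, 2 (Arsb and Manba). The count of all probe sets called between the cultures was 28, and it became 13 with culture alone in the fit, 8 after quantile normalization, 2 of the 623 probe sets above the median level, and 49 with the robust prior. With 1 array left out and culture alone in the fit it ranged from 0 to 18, at 0 without either array of WTA, 12 without the control array of WT2 and 18 without its STZ array. The median difference over the 26 genes, STZ minus control, ranged from -0.12 to 0.0051 with 1 array left out and was -0.02 after quantile normalization. The median of WTA minus WT2 ranged from -0.044 to 0.022 with 1 array left out. Apart from arrays left out, 2 genes changed direction per comparison, all at sizes near 0. They were Gm2a (0.0020 after median centring) and Naglu (0.00040 after quantile normalization) for STZ minus control, and Ugt8a (0.011 after median centring) and Ctsa (-0.0011 after quantile normalization) for WTA minus WT2. Leaving out an array unbalances treatment and culture, so such values hold part of the other difference. In this way 12 of 26 genes kept their direction for STZ minus control and 15 of 26 for WTA minus WT2. The ranges of the others for STZ minus control were -0.22 to 0.074 for B4galnt1, -0.77 to 0.12 for Arsb, -0.032 to 0.14 for Neu2, -0.042 to 0.16 for Gal3st1, -0.076 to 0.13 for Sgsh, -0.097 to 0.077 for Gm2a and -0.30 to 0.068 for Neu1. They were -0.35 to 0.87 for Ugcg, -0.15 to 0.061 for Naglu, -0.28 to 0.39 for Manba, -0.14 to 0.45 for Galc, -0.057 to 0.30 for A4galt, -0.30 to 0.073 for Arsa and -0.83 to 0.060 for B3galnt1. For WTA minus WT2 they were -0.039 to 0.12 for Aga, -0.015 to 0.11 for Hexa, -0.086 to 0.11 for Psap, -0.088 to 0.068 for Ugt8a, -0.076 to 0.12 for Neu2 and -0.044 to 0.13 for Ctsa. They were -0.0086 to 0.32 for Neu1, -0.045 to 0.16 for Naglu, -0.0035 to 0.13 for Galns, -0.0096 to 0.14 for Neu3 and -0.15 to 0.032 for Glb1. The number of arrays (2 per group) and a signal near background for Ugt8a, Neu2 and Neu3 limit what can be seen.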

Other observations

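Of the 15 measured genes in the list of other lysosomal breakdown and related genes, 5 had their highest value in the STZ array of WTA and 7 their lowest. Over all 1246 probe sets these counts were 326 and 353. The 5 were Asah1, Lamp1, Mcoln1, Smpd1 and Sulf1, and the first 3 of these were picked after their values were seen. Of the 26 genes 8 had their highest value in the STZ array of WTA, Gla among them, and 10 their lowest. Asah1, the acid ceramidase, stood at 11.47 and 11.15 with STZ in WTA and WT2, against 11.07 and 11.25 in control cells. Lamp1, a protein of the lysosomal membrane, stood at 12.89 and 12.70 with STZ in WTA and WT2, against 12.65 and 12.80 in control cells. Mcoln1, a calcium channel of that membrane, stood at 9.34 and 8.97 with STZ in WTA and WT2, against 9.03 and 8.95 in control cells. In WT2 Mcoln1 was higher with STZ, as Gla was, while Asah1 and Lamp1 were lower. None of the 3 passed limma's test (adjusted p = 1 for each), and Lamp2, of the same membrane, lay lower with STZ in both cultures, with a difference of -0.14.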
